A study of Mus musculus with 30 samples.

Results

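The 10 genes described here make or feed the MHC class I molecules through which a cell shows peptides to CD8 T cells: the heavy chains H2-K1 and H2-D1, the light chain B2m, the peptide transporter subunits Tap1 and Tap2, the loading chaperone Tapbp, the immunoproteasome subunits Psmb8 and Psmb9, the trimming peptidase Erap1 and the transactivator Nlrc5. They were taken by name, not by their values, from the 53431 genes of the count table, and all 10 passed the filter on low counts in every comparison. RNA-seq covered 30 libraries of CT-26 and Colon 26, murine colorectal carcinoma lines that both come from BALB/c mice, in a study of what separates models that respond differently to an antibody against PD-1. Each line gave 3 libraries of cultured cells, called its cultures here, and 4 tumors at each of the sizes 100, 400 and 800 mm3. The tumors grew under the skin of the right flank in BALB/c females, whose age is not given in the sources used here. A treatment text shared by all samples describes antibody dosing, but which tumors, if any, received an antibody is not given. Each model is a single cell line, and the sources used here name more than 1 supplier of Colon 26 without saying which stock gave these samples.

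Class I molecules consist of a polymorphic heavy chain, beta-2 microglobulin and a peptide. Proteasomes cut proteins in the cytosol into peptides, the TAP transporter carries the peptides into the endoplasmic reticulum, ERAP1 trims them there, and tapasin, the product of Tapbp, holds empty class I molecules next to TAP until a peptide is bound. Interferon gamma from T cells and NK cells raises most of these genes, in part through IRF1, exchanges the constitutive proteasome subunits for the immunoproteasome ones and induces NLRC5, which acts at class I promoters. Loss of class I molecules in tumor cells is a known way to escape CD8 T cells.

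Library totals ran from 21384730 to 39722586 counts. The 3 Colon 26 cultures (36042940 to 39722586 counts) were deeper than the 3 CT-26 cultures (21384730 to 27856380), and the library numbers in their titles belong to different series, so handling and cell line cannot be told apart in the culture comparison. Nothing says that the libraries of a group came from separate cultures, and p-values there measure only the spread between libraries, which may be technical. The labels call the lines colon adenocarcinoma. Of 7 epithelial markers, Epcam, Cdh1 and Vil1 had at most 3 counts in every CT-26 culture, and Krt18, Epcam and Cdh1 had at most 3 counts in every Colon 26 culture. The other markers of each line exceeded 3 counts in at least 1 culture. All 7 together summed to between 40.3 and 42.7 CPM in the CT-26 cultures and between 11.8 and 12.6 CPM in those of Colon 26. The T cell and NK cell markers were at most 3 counts in all cultures, whereas Ptprc, the pan-leukocyte marker CD45, lay between 43.7 and 188 CPM (TMM-scaled counts relative to the library total) in the tumors. Tumor values therefore sum cancer and host cells, and fewer cells of a type cannot be told apart from less RNA per cell.

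On the mouse genome GRCm38, 7 of the 10 genes lie on chromosome 17, in or next to the H2 complex: Tapbp (33915899 to 33929292), H2-K1 (33996017 to 34000347), Psmb9 (34181987 to 34187764), Tap1 (34187553 to 34197225), Psmb8 (34197721 to 34201454), Tap2 (34203527 to 34216321) and H2-D1 (35262730 to 35267499). B2m lies on chromosome 2 (122147686 to 122153083), Erap1 on chromosome 13 (74639568 to 74693201) and Nlrc5 on chromosome 8 (94434356 to 94527272). The counting was not stated to use strand, and exons of Tap1 and Psmb9 overlap on opposite strands, as do exons of Erap1 and Cast. Of the 50-base windows of each gene's exons, 0% were found in another gene for B2m, 0.339% for Nlrc5, 9.63% for H2-K1, 12.8% for H2-D1 and 23.2% for Tapbp, the highest share among the 10. BALB/c mice carry the d haplotype of the H2 complex, which also encodes a further heavy chain, H2-L, beside H2-D, while the reference is C57BL/6 with the b haplotype. How BALB/c reads of the polymorphic heavy chains were assigned was not tested, so the levels of H2-K1 and H2-D1 are uncertain.

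RefSeq promoter sequences of GRCm38.p6, 250 bases before to 50 bases after the annotated start, matched 8 of the 10 genes and not Tap2 or Nlrc5. The 5 windows printed here are those whose genes the results turn on: the heavy chains, the light chain that pairs with them, and the immunoproteasome pair, of which Psmb9 shares most of its window with Tap1. Capitals mark 5 motifs, whose letters were chosen with these sequences in view and searched on both strands: AANNGAAA (an interferon regulatory factor element), TTCNNNGAA (a gamma-activated sequence), the kappa B site of class I enhancer A (GGGGA and CCCC set 2 bases apart), TGACG (one part of a cyclic AMP response element) and CCAAT. A motif on the opposite strand appears as its reverse complement, and no motif overlapped another in the printed windows.
H2-K1 (chr17:34000298-34000597, minus strand): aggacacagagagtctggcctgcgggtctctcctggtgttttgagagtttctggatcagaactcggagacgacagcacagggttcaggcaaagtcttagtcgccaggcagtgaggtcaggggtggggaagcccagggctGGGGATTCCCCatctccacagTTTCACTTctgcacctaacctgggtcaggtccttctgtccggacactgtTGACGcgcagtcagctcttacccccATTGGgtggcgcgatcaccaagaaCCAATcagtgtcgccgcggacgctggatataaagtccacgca
H2-D1 (chr17:35262844-35263143, plus strand): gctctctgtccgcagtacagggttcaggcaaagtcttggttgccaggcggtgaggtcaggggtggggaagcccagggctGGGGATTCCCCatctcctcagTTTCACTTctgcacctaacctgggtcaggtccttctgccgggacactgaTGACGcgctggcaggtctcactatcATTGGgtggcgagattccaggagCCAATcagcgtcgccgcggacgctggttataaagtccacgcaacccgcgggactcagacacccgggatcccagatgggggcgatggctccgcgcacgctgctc
B2m (chr2:122147437-122147736, plus strand): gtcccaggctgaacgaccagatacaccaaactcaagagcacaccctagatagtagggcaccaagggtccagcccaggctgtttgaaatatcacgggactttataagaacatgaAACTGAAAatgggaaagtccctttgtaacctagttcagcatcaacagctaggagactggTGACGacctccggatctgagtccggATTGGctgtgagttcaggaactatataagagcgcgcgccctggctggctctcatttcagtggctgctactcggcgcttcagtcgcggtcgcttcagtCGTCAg
Psmb9 (chr17:34187281-34187580, minus strand): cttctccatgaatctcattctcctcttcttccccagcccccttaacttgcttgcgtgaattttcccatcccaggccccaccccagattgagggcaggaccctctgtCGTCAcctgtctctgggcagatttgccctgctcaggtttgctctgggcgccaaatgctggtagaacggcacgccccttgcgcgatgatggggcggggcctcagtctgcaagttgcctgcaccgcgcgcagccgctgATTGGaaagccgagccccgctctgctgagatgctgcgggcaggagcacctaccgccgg
Psmb8 (chr17:34197945-34198244, plus strand): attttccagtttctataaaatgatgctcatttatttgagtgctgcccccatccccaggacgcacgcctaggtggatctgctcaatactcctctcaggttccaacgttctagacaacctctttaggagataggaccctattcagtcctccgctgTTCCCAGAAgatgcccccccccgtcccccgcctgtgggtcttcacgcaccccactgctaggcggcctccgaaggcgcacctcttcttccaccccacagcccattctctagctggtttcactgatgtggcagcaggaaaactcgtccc

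The heavy chain windows carried the same series of motifs. The kappa B site was found in 116 of 27025 RefSeq promoters of this length (0.429%), and 2 of these were H2-K1, at bases -111 to -101 from the start, and H2-D1, at -171 to -161. In each of them AANNGAAA followed on the opposite strand, at -90 to -83 in H2-K1 and at -150 to -143 in H2-D1, and TGACG and CCAAT lay further downstream. B2m held AANNGAAA at -137 to -130 and TGACG at -78 to -74, but no match to the kappa B letters searched here. Looser forms of a kappa B site were not searched. Across all promoters AANNGAAA was in 24.2%, TGACG in 21.02% and CCAAT in 37.9%. By their RefSeq starts, Psmb9 and Tap1 start 226 bases apart on opposite strands, and their windows share 275 bases, from 34187306 to 34187580. The gene positions given above are from GENCODE, where these genes overlap. Motif positions count from the RefSeq starts, which can differ from the gene ends given above. The only match to TTCNNNGAA among the 8 windows was that of Psmb8 at -97 to -89, and 8.47% of all promoters held it. These matches describe letters, not binding. Because the letters were chosen with these sequences in view, the shares beside them are no test of how unusual the matches are.

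In culture the mRNA levels of 4 of the 10 genes differed between the lines past both thresholds. Psmb8 was higher and H2-D1, B2m and Nlrc5 were lower in Colon 26 and were differentially expressed (DE), which throughout means an edgeR adjusted p no higher than 0.1 together with a change of 1 or more on the log2 scale. In all, 22.9% of the 14334 genes tested were DE between the cultures, 10.6% higher and 12.3% lower in Colon 26. By the adjusted p alone 9 of the 10 differed, 4 higher and 5 lower, beside 82.6% of all genes. The median log2 fold change of the 10 genes was -0.03 (Colon 26 over CT-26), beside 0.01 for all genes tested.

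B2m, the light chain of every class I molecule, was at 1396, 1415 and 1304 CPM in the 3 CT-26 cultures and at 462, 429.8 and 459 CPM in the 3 Colon 26 cultures. Its log2 fold change was -1.64 ± 0.04 (SE), 3.13-fold lower in Colon 26, with an edgeR adjusted p of 5.34e-16. The cultures of a line lay close together and the lines did not overlap. H2-D1 stood at 836, 909 and 874 CPM in CT-26 against 405, 403 and 406 CPM in Colon 26, a log2 fold change of -1.15 ± 0.03 (edgeR adjusted p = 9.62e-16). H2-K1 stood at 181, 193 and 187 CPM against 114, 119 and 122 CPM. It was also lower in Colon 26 in every culture, with a log2 fold change of -0.69 ± 0.03 (edgeR adjusted p = 5.08e-12), but under the fold threshold. Nlrc5, which drives class I promoters, had 46.4, 43.2 and 43.1 CPM in CT-26 against 12.7, 14.4 and 12.5 CPM in Colon 26. With a log2 fold change of -1.78 ± 0.06 (edgeR adjusted p = 2.85e-13) it had the lowest value of the 10 genes.

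Psmb8, the LMP7 subunit that replaces Psmb5 in the immunoproteasome, went the other way. Its CT-26 cultures held 11.4, 10.7 and 11.1 CPM and its Colon 26 cultures 48.7, 49.2 and 52.2 CPM, a log2 fold change of 2.14 ± 0.05 or 4.41-fold (edgeR adjusted p = 3.48e-15). Its partner Psmb9, the LMP2 subunit, was low in both lines, at 4.87, 5.60 and 4.36 CPM in CT-26 against 5.14, 5.77 and 5.40 CPM in Colon 26. Their ranges overlapped and the log2 fold change of 0.10 ± 0.11 did not pass (edgeR adjusted p = 0.405). Tap1, Tap2 and Tapbp were higher in each Colon 26 culture than in any CT-26 culture but under the fold threshold, with log2 fold changes of 0.84 ± 0.04, 0.53 ± 0.04 and 0.77 ± 0.03 and mean CPM of 34.4 and 63.2, 109.9 and 163, and 55.3 and 97.0 in CT-26 and Colon 26. Erap1 differed least among the 9 that passed by adjusted p alone, at 40.1 ± 1.45 CPM (SD, n = 3) in CT-26 against 36.9 ± 2.96 CPM in Colon 26, with overlapping cultures. In 8 of the 10 genes the cultures of the lines did not overlap, as in 79.1% of all genes tested.

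**Figure D1:**
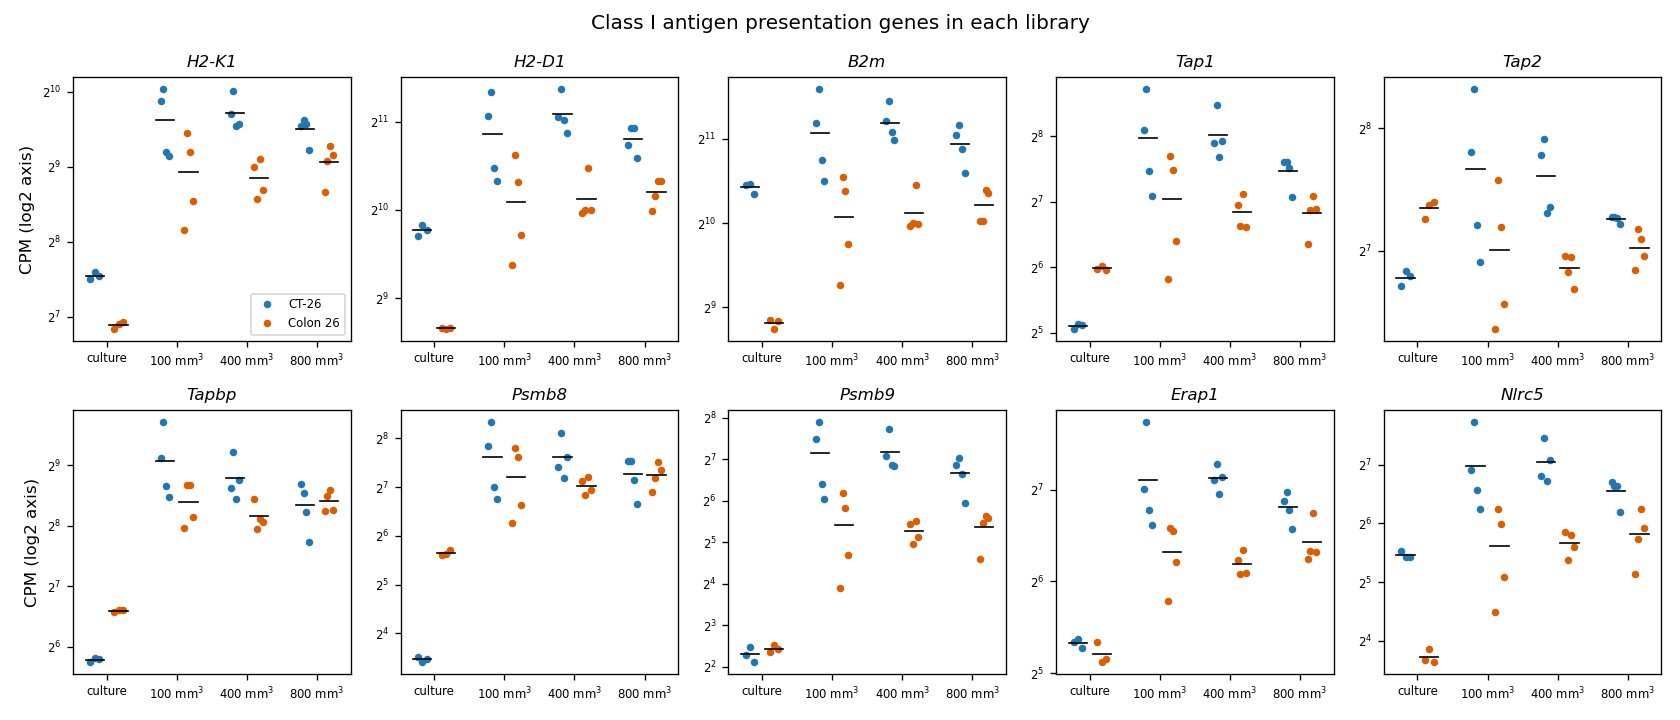
Level of each of the 10 genes (CPM, log2 axis) in each library, for CT-26 (blue) and Colon 26 (orange) in culture (3 libraries each) and in tumors of 100, 400 and 800 mm3 (4 each); dots are libraries and lines are group means. B2m, H2-D1, H2-K1 and Nlrc5 were lower in the Colon 26 cultures, Psmb8 was higher there, and Psmb9 was near the bottom of its range in both cultures.

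In tumors every difference of the 10 genes that passed at a size went the same way, lower in Colon 26. At 100 mm3 the DE genes were Psmb9 and Nlrc5, 2 of 10, beside 13.2% of the 15406 genes tested (7.06% lower), and 7 of 10 were lower by the adjusted p alone beside 30.1% of all genes. At 400 mm3 they were Psmb9, Nlrc5, Tap1 and B2m, 4 of 10, beside 14.3% of 15241 genes (7.79% lower), and all 10 were lower by the adjusted p alone beside 26.3%. At 800 mm3 only Psmb9 was DE, 1 of 10, beside 14.1% of 15521 genes (7.62% lower), and 8 of 10 were lower by the adjusted p alone beside 31% of all genes. By the adjusted p of DESeq2 alone, 5, 10 and 8 of the 10 genes passed at 100, 400 and 800 mm3. The median log2 fold change of the 10 genes was -0.77, -0.94 and -0.53 at the 3 sizes, where the median of all genes tested was -0.002, 0.03 and -0.006. At 100 mm3 the levels of the models were apart in 1 of 10 genes (Erap1), beside 47.4% of all genes. At 400 mm3 they were apart in 9 (all but Psmb8), beside 43.2%. At 800 mm3 they were apart in 4 (H2-D1, B2m, Tap2 and Psmb9), beside 48%.

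Psmb9 was the single gene of the 10 that was DE at each size. At 100 mm3 it stood at 178, 238, 84.5 and 66.01 CPM in the CT-26 tumors and at 15.0, 72.8, 56.7 and 25.8 CPM in the Colon 26 tumors. The highest Colon 26 tumor lay above the lowest CT-26 tumor, and the log2 fold change was -1.73 ± 0.56 (edgeR adjusted p = 0.0292). At 400 mm3 the values were 136, 213, 117 and 114 CPM against 43.3, 31.0, 45.8 and 35.0 CPM, with no overlap and a log2 fold change of -1.89 ± 0.22 (edgeR adjusted p = 0.000207). At 800 mm3 they were 117, 131, 100 and 62.2 CPM against 24.1, 44.5, 49.95 and 48.2 CPM, again apart, with a log2 fold change of -1.31 ± 0.26 (edgeR adjusted p = 0.00191). Over all 24 tumors, with size as a term, it was 3.07-fold lower in Colon 26. Psmb8 was DE at no size. Its tumors held 229, 323, 129 and 108 CPM in CT-26 against 76.9, 223, 196 and 98.7 CPM in Colon 26 at 100 mm3, and 185, 187, 142 and 100.2 CPM and 119.9, 146, 184 and 162 CPM at 800 mm3. Its log2 fold changes were -0.40 ± 0.43 (edgeR adjusted p = 0.467), -0.59 ± 0.19 (edgeR adjusted p = 0.0308) and -0.01 ± 0.19 (edgeR adjusted p = 0.956) from the smallest to the largest size, so that it passed by adjusted p at 400 mm3 alone.

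Nlrc5 was lower in Colon 26 tumors at every size by its fold change, but the models overlapped at 100 and 800 mm3. At 400 mm3 it had 113, 177, 105 and 135 CPM in CT-26 against 57.6, 41.5, 56.1 and 48.3 CPM in Colon 26, a log2 fold change of -1.37 ± 0.18 (edgeR adjusted p = 0.000358). At 100 mm3 its log2 fold change was -1.35 ± 0.43 (edgeR adjusted p = 0.0277). Without CT-26 replicate 2 of 100 mm3, the library with the highest level of all 10 genes at that size, the value was -0.99 and the DE call was lost (edgeR adjusted p = 0.0667). Without CT-26 replicate 4 or Colon 26 replicate 2 of that size, B2m (-1.14 and -1.18) and Tap1 (-1.13 and -1.23) were DE as well, 4 of the 10 in all. At 800 mm3 the log2 fold change of Nlrc5 was -0.75 ± 0.21 (edgeR adjusted p = 0.0114), past the adjusted p and under the fold threshold.

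Of the molecule itself, B2m had 2365, 2787, 2168 and 2020.0 CPM in the CT-26 tumors of 400 mm3 and 1001, 1025, 1402 and 1012 CPM in the Colon 26 tumors, which did not overlap. Its log2 fold changes were -0.99 ± 0.32 (edgeR adjusted p = 0.0279), -1.07 ± 0.14 (edgeR adjusted p = 0.0004) and -0.74 ± 0.13 (edgeR adjusted p = 0.00102) at 100, 400 and 800 mm3. The only DE call, at 400 mm3, was lost without CT-26 replicate 2, where the value was -0.98. H2-D1 at 400 mm3 stood at 2117, 2640.5, 2072 and 1866 CPM against 1001, 1023, 1419.8 and 1019.5 CPM, and its log2 fold changes were -0.77 ± 0.31, -0.96 ± 0.15 and -0.61 ± 0.11. H2-K1 at that size stood at 837, 1031, 746 and 757 CPM against 509, 378, 550.0 and 412 CPM, with log2 fold changes of -0.69 ± 0.31, -0.86 ± 0.15 and -0.45 ± 0.13. Both heavy chains passed by the adjusted p at each size (edgeR adjusted p between 0.000768 and 0.099) and at no size by the fold threshold. At 100 mm3 these passes were not firm. With 1 library left out, the edgeR adjusted p there rose to as much as 0.217 for H2-K1 and 0.161 for H2-D1.

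Among the genes of peptide supply, Tap1 had 238, 355, 205 and 243 CPM in CT-26 against 123, 99.3, 139 and 98.0 CPM in Colon 26 at 400 mm3, with log2 fold changes of -0.93 ± 0.47 (edgeR adjusted p = 0.133), -1.17 ± 0.18 (edgeR adjusted p = 0.001) and -0.65 ± 0.16 (edgeR adjusted p = 0.00721) at the 3 sizes. The call at 400 mm3 went to -0.99 without CT-26 replicate 2 of that size. Tap2 was at -0.66 ± 0.35, -0.75 ± 0.14 and -0.25 ± 0.08, and Erap1 at -0.78 ± 0.26, -0.93 ± 0.09 and -0.39 ± 0.12, on the same scale. Tapbp held 558, 836, 401 and 357 CPM in CT-26 against 248, 407, 409 and 283 CPM in Colon 26 at 100 mm3, but 413, 371, 298 and 212 CPM and 303, 358, 386 and 307 CPM at 800 mm3, where the models overlapped. Its log2 fold change was -0.67 ± 0.28 (edgeR adjusted p = 0.0731) at 100 mm3 and 0.05 ± 0.18 (edgeR adjusted p = 0.828) at 800 mm3. The change of the model difference from 100 to 800 mm3 was itself tested as an interaction, and 0 of the 10 genes passed in edgeR, by the adjusted p alone, at an unadjusted p under 0.05 or in DESeq2, beside 0.0308% of all genes DE and 12.5% at an unadjusted p under 0.05.

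**Figure D2:**
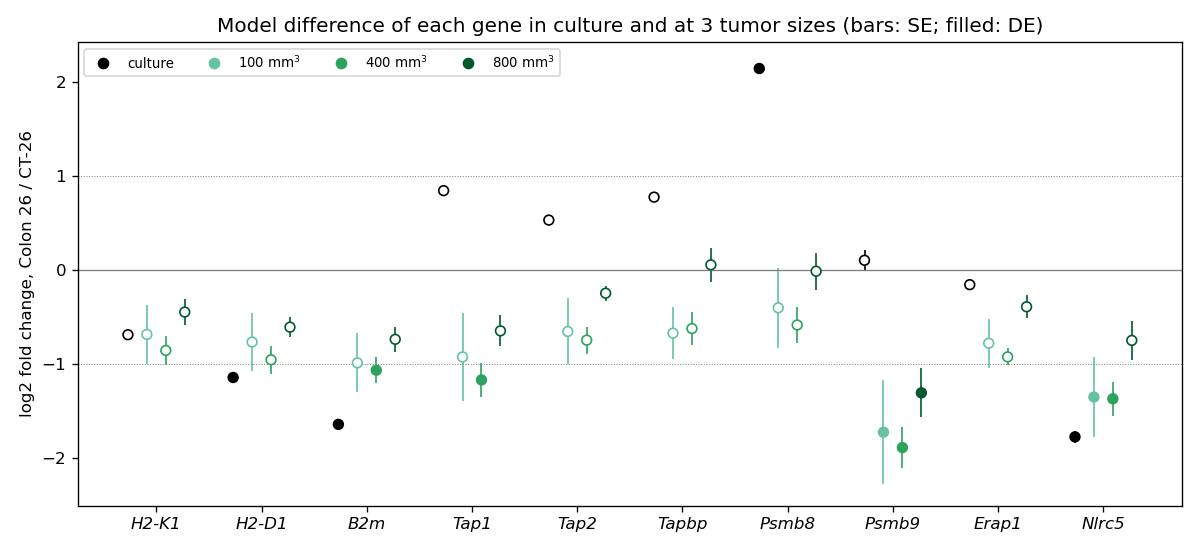
Log2 fold change of Colon 26 over CT-26 for each of the 10 genes in culture (black) and in tumors of 100, 400 and 800 mm3 (light to dark green), with the standard error as bars and DE genes filled; dotted lines mark the fold threshold. Psmb8, Tap1, Tap2 and Tapbp lie above 0 in culture, with Psmb9 just above 0 (0.10), and the values at 100 and 400 mm3 lie below 0 for all 10 genes.

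With all 24 tumors in 1 fit and size as a term, Psmb9 (-1.62 ± 0.24, edgeR adjusted p = 2.79e-06) and Nlrc5 (-1.13 ± 0.19, edgeR adjusted p = 1.75e-05) were DE and 9 of the 10 were lower by the adjusted p alone, beside 14.6% of the 16487 genes DE (7.75% lower) and 34.1% lower by the adjusted p alone. The exception was Psmb8 (log2 fold change -0.31 ± 0.19, edgeR adjusted p = 0.156). Some markers of other cell types also differed between the models, and their calls changed with size. All 3 NK cell markers were DE and lower in Colon 26 at each size, whereas the 5 T cell markers were all DE and lower at 400 mm3 and 0 of 5 passed at 100 or 800 mm3, by the adjusted p alone as well. Of 3 neutrophil markers, 0 were DE at 100 mm3, 3 were lower at 400 mm3 and 2 at 800 mm3, with median log2 fold changes of 0.78, -3.30 and -2.31. Among 4 fibroblast markers, Lum and Pdgfra were DE and higher and Dcn was DE and lower in Colon 26 at 100 and 400 mm3, and Pdgfra was higher and Dcn lower at 800 mm3. Of 5 macrophage markers, 1 was DE at 400 mm3 (Csf1r, higher in Colon 26) and 0 at 100 or 800 mm3. The summed CPM of 5 T cell markers ran from 6.02 to 63.9 in the CT-26 tumors and from 2.55 to 23.7 in the Colon 26 tumors, that of 3 NK cell markers from 3.27 to 18.9 and from 0.58 to 4.06, and that of 5 macrophage markers from 415 to 2314 and from 1185 to 3031. The sum of the 3 neutrophil markers ran from 8.97 to 68.6 CPM and from 3.52 to 17.0 CPM, and that of the 4 fibroblast markers from 724 to 1523 and from 755 to 1956 CPM. By contrast, the median sum of the 5 dendritic cell markers was higher in Colon 26, at 34.1, 37.5 and 38.5 CPM from the smallest to the largest size. In CT-26 tumors these medians were 24.7, 29.4 and 26.2 CPM. The cultures also held dendritic cell markers, 14.0 to 15.3 CPM in Colon 26 and 3.70 to 4.63 CPM in CT-26. Sums of 4 endothelial markers ran from 52.4 to 179 CPM in CT-26 tumors and from 77.2 to 130 CPM in Colon 26 tumors. None of these markers was at 0 in all tumors of a group. Their part in the class I differences was not tested. Ptprc had medians of 81.5 CPM in CT-26 against 75.5 CPM in Colon 26 tumors. With its log2 CPM as a covariate the same genes were DE at each size and over all tumors, with Psmb9 at -1.76, -1.83, -1.33 and -1.58. Since the Ptprc medians of the models were close, this covariate could change the model difference little. It does not stand for T cell or NK cell content, whose part was not tested. Skeletal muscle markers summed to between 0.256 and 1979 CPM over the tumors, with 3 of 3 DE and lower in Colon 26 at 800 mm3 and 0 DE at 100 mm3 or at 400 mm3, where 1 of the 3 could be tested, and their part was not tested either.

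Compared per length, in FPKM, B2m had the highest level of the 10 genes in the tumors of either model, at 2445 ± 524 (SD, n = 12) in CT-26 and 1332 ± 303 in Colon 26. H2-D1 (904 and 548 FPKM), H2-K1 (479 and 315), Tapbp (147 and 113) and Psmb8 (110 and 90.5) followed in that order in both. Psmb9 came next in CT-26 tumors, with a mean of 94.0 FPKM, above Tap1 (76.4) and Tap2 (52.4). In Colon 26 tumors Psmb9 had a mean of 31.1 FPKM, below Tap1 (41.7) and Tap2 (37.1). Erap1 and Nlrc5 had the lowest levels, 22.5 and 23.1 FPKM in CT-26 and 14.4 and 10.5 FPKM in Colon 26.

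Against culture, tumors of 100 mm3 had more of nearly every gene in the list. In CT-26, 8 of the 10 were DE and higher, beside 32.2% of the 15370 genes tested (22.2% higher), and B2m (0.64 ± 0.24) and Tap2 (0.88 ± 0.31) passed by the adjusted p alone. In Colon 26, 9 of the 10 were DE and higher, beside 26.9% of 15946 genes (20.8% higher), and Tap2 did not pass (-0.25 ± 0.25, edgeR adjusted p = 0.387). The median log2 fold change of the 10 genes was 1.92 in CT-26 and 1.58 in Colon 26, beside 0.06 and 0.05 for all genes. Both comparisons use the 100 mm3 tumors and cultures that enter the comparisons of the models.

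Psmb9 changed most in both models. It went from 4.94 ± 0.624 CPM (SD, n = 3) in CT-26 culture to 142 ± 80.8 CPM (SD, n = 4) in the tumors, a log2 fold change of 4.84 ± 0.53 (edgeR adjusted p = 7.31e-05), and from 5.44 ± 0.320 to 42.6 ± 26.8 CPM in Colon 26, 3.06 ± 0.53 (edgeR adjusted p = 0.000633). Every tumor lay above every culture in both models. Psmb8 rose by 4.15 ± 0.43 in CT-26 and by 1.66 ± 0.35 in Colon 26, Tapbp by 3.28 ± 0.31 and 1.88 ± 0.18, and Tap1 by 2.87 ± 0.38 and 1.15 ± 0.40. The Tap1 call in Colon 26 was lost without replicate 2 (0.84) or replicate 3 (0.99) of the 100 mm3 tumors, and the lowest of these tumors, at 56.3 CPM, was under all 3 cultures. H2-K1 rose by 2.07 ± 0.24 and 2.12 ± 0.29, and Erap1 rose by 1.77 ± 0.26 and 1.20 ± 0.18. H2-D1 rose by 1.08 ± 0.24 in CT-26, where the call was lost without replicate 2 of the tumors (0.86), and by 1.51 ± 0.27 in Colon 26. Nlrc5 rose by 1.502 ± 0.33 and 1.98 ± 0.39.

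B2m started from the widest gap among the genes of the molecule. In CT-26 it went from 1372 ± 59.3 to 2141 ± 722 CPM, and in Colon 26 from 450.2 ± 17.7 to 1077 ± 407 CPM, log2 fold changes of 0.64 ± 0.24 and 1.34 ± 0.27. The Colon 26 tumors of 100 mm3, at 618, 1494, 1334 and 861 CPM, lay within or above the range of the CT-26 cultures in 2 of 4 tumors, and the order of group means for B2m placed CT-26 culture above all 3 Colon 26 tumor groups. Tap2 was the only gene of the 10 whose Colon 26 culture mean (163 CPM) was above the means of all 3 Colon 26 tumor groups (128, 116 and 130.0 CPM).

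Whether the models differed in this change was tested as an interaction of model and tissue. It was DE for 5 of the 10 genes, all with a lower change in Colon 26 (Tap2 did not rise there), beside 17.6% of the 16501 genes tested (9.31% in that direction). Psmb8 had the largest of them, -2.54 ± 0.57 on the log2 scale (edgeR adjusted p = 0.00252), followed by Psmb9 at -1.83 ± 0.79 (edgeR adjusted p = 0.0757), Tap1 at -1.77 ± 0.60 (edgeR adjusted p = 0.0273), Tapbp at -1.44 ± 0.36 (edgeR adjusted p = 0.0047) and Tap2 at -1.18 ± 0.44 (edgeR adjusted p = 0.044). These are the proteasome, transporter and chaperone genes. For the molecule and its transactivator the difference did not pass: it was 0.01 ± 0.39 for H2-K1, 0.38 ± 0.39 for H2-D1, 0.66 ± 0.39 for B2m and 0.43 ± 0.55 for Nlrc5, and -0.62 ± 0.34 for Erap1 (edgeR adjusted p between 0.162 and 1). The Psmb9 call was lost in 9 of the 14 fits that left out 1 library, with edgeR adjusted p up to 0.139, and the Tap2 call fell under the fold threshold without CT-26 replicate 2 (-0.87) or Colon 26 replicate 1 (-0.99) of 100 mm3. Handling of the culture libraries cannot be told apart from the line here either.

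**Figure D3:**
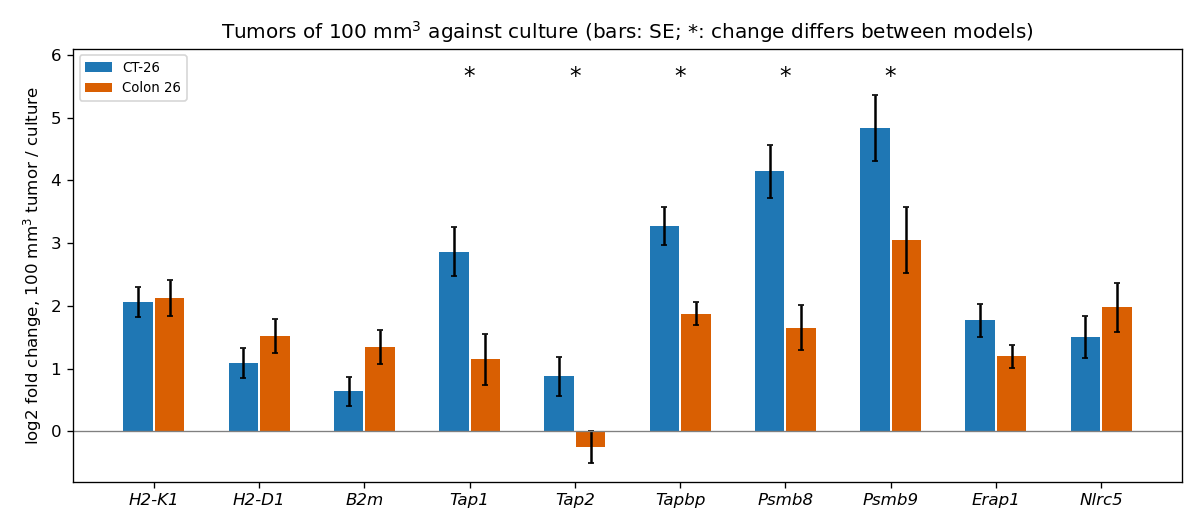
Log2 fold change of tumors of 100 mm3 over culture for each of the 10 genes in CT-26 (blue, 4 tumors and 3 cultures) and Colon 26 (orange, 4 and 3), with the standard error as bars; a star marks a DE interaction of model and tissue. The stars stand over Tap1, Tap2, Tapbp, Psmb8 and Psmb9, where the blue bar is the taller, and the bars of H2-K1 are nearly equal.

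Growth of the tumors did not move the 10 genes past the threshold. From 100 to 400 mm3 and from 100 to 800 mm3, edgeR called 0 of 10 in either model, by the adjusted p alone as well, and DESeq2 called 0. At an unadjusted p under 0.05 there was 1 of 10, Tapbp from 100 to 800 mm3 in CT-26 (-0.73 ± 0.28 on the log2 scale), and 0 in the other 3 comparisons. Of all genes, 0% were DE in either CT-26 comparison, and 0.0131% and 1.33% in the Colon 26 comparisons of 400 and 800 mm3 with 100 mm3. At an unadjusted p under 0.05 the shares of all genes were 22.2% and 10.5% in CT-26 and 12.7% and 20.7% in Colon 26. The 4 CT-26 tumors of 100 mm3 ran from 564 to 1048 CPM for H2-K1 and from 75.6 to 212 CPM for Nlrc5. Their measured volumes were 103, 106, 136 and 146 mm3, at 940, 1048, 586 and 564 CPM of H2-K1. Colon 26 tumors of that size measured 103, 119, 122 and 125 mm3, at 373, 284, 588 and 702 CPM. A relation of level to volume within a size was not tested. In CT-26 the group means of Nlrc5 were 126, 133 and 94.1 CPM at the 3 sizes, and in Colon 26 they were 49.1, 50.9 and 56.4 CPM.

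Ranked by group mean, CT-26 tumors of 400 mm3 came first for 8 of the 10 genes and CT-26 tumors of 100 mm3 for Tap2 and Tapbp. A culture group came last for all 10, Colon 26 culture for H2-K1, H2-D1, B2m, Erap1 and Nlrc5 and CT-26 culture for Tap1, Tap2, Tapbp, Psmb8 and Psmb9. Neighbours in these orders mostly overlapped, in 5 of 7 neighbouring pairs for H2-K1, H2-D1, B2m, Tap1, Tapbp and Psmb8 and in 6 of 7 for Tap2, Psmb9, Erap1 and Nlrc5. For Nlrc5 the only break was between CT-26 culture and Colon 26 culture. For B2m the breaks were between CT-26 tumors of 800 mm3 and CT-26 culture and between Colon 26 tumors of 100 mm3 and Colon 26 culture.

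Ratios within a library do not depend on its depth or on a common scaling, and 5 ratios in FPKM were chosen for the proteasome after the levels had been seen, giving 20 tests over culture and the 3 sizes with a two-sided exact permutation test each. The ratio of Psmb9 to Psmb8 was lower in every Colon 26 library than in any CT-26 library of the same kind. In culture its geometric mean was 0.534 in CT-26 and 0.131 in Colon 26, 4.08-fold lower (exact p = 0.1, the smallest that 3 against 3 allow). In tumors it was 0.835 and 0.318 at 100 mm3, 0.879 and 0.354 at 400 mm3 and 0.800 and 0.319 at 800 mm3, lower by 2.63-fold, 2.48-fold and 2.51-fold (exact p = 0.0286 each, the smallest that 4 against 4 allow, 0.0635 after Benjamini-Hochberg adjustment over the 20 tests). Psmb9 to Tap1, the pair that shares a promoter window, was likewise lower in Colon 26 without overlap in culture (1.66-fold) and at each size (1.76-fold, 1.63-fold and 1.57-fold), with the same exact p of 0.1 in culture and 0.0286 in tumors.

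Each immunoproteasome subunit takes the place of a constitutive one. The ratio of Psmb8 to Psmb5 was 0.0819 in CT-26 culture and 0.295 in Colon 26 culture, 3.599-fold higher, and came to between 1.09 and 1.58 in the tumor groups of both models, where the models overlapped at every size. The ratio of Psmb9 to Psmb6 was 0.0386 and 0.0379 in the cultures (exact p = 0.6) and 3.51-fold, 3.98-fold and 2.41-fold lower in Colon 26 tumors of 100, 400 and 800 mm3, with overlap at 100 mm3 (exact p = 0.0571). Psmb10, the remaining inducible subunit, was at 0.0514 and 0.0537 of Psmb7 in the cultures (exact p = 0.4) and 2.17-fold lower in Colon 26 at 100 mm3 (exact p = 0.0286), 1.96-fold lower at 400 mm3 (exact p = 0.0571) and 1.46-fold lower at 800 mm3 (exact p = 0.143).

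**Figure D4:**
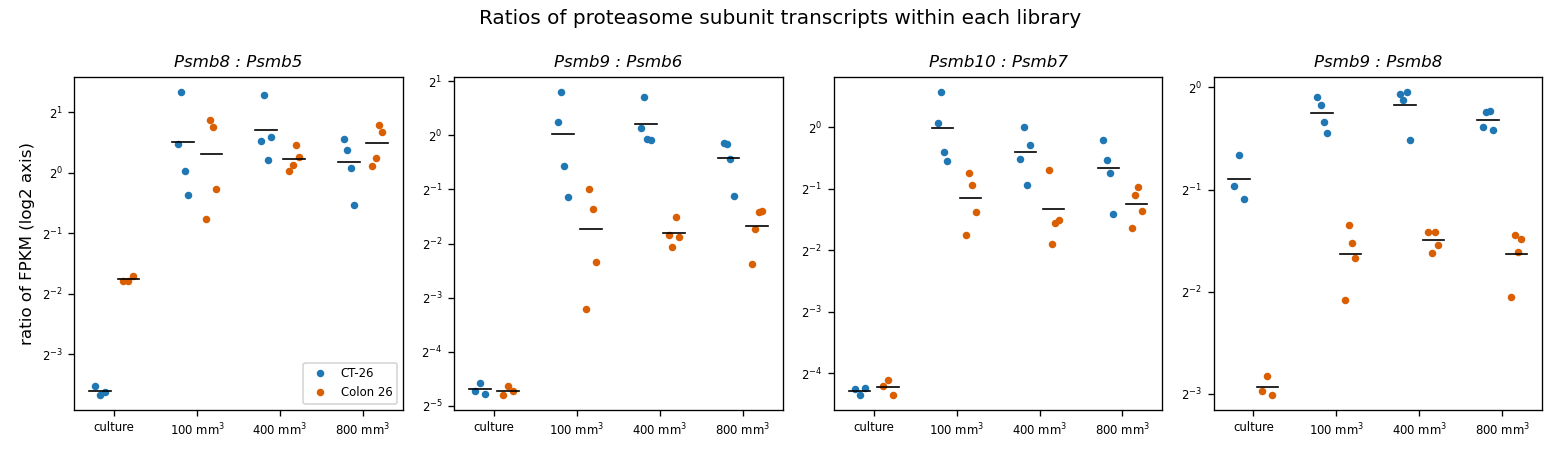
Ratio of the FPKM of an inducible proteasome subunit to its constitutive counterpart (3 left panels) and of Psmb9 to Psmb8 (right panel) in each library, on a log2 axis, for CT-26 (blue) and Colon 26 (orange); dots are libraries and lines are group means. In the right panel every Colon 26 library lies below every CT-26 library of the same kind, while the Psmb8 to Psmb5 ratios of the models are apart in culture and overlap at each tumor size.

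The other genes of the pathway were followed through 7 lists of 36 genes in all, of which 33 to 35 were tested in each comparison. In culture 3 of 33 were DE and higher in Colon 26 and 1 was lower, beside 10.6% and 12.3% of all genes. H2-T23, the heavy chain of Qa-1, had the largest rise (2.29 ± 0.09), from 2.62 ± 0.355 CPM in the CT-26 cultures to 13.2 ± 0.349 CPM in those of Colon 26. Rfx5, a subunit of the factor that binds MHC promoters with NLRC5, was at 1.495 ± 0.07 and the cytosolic peptidase Blmh at 1.121 ± 0.04. H2-T24, a nonclassical heavy chain, was at -1.51 ± 0.39 but had at most 15 counts in any culture. Rfx5 and Nlrc5 thus differed in opposite directions between the cultures.

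In tumors 5 of 35 were DE and lower in Colon 26 at 100 mm3, and 0 were higher, beside 13.2% of all genes DE (7.06% lower). They were the nonclassical heavy chains H2-T24 (-2.07 ± 0.45) and H2-T22 (-1.34 ± 0.39), the transcription factor Irf1 (-1.13 ± 0.44), Psmb10 (-1.01 ± 0.31) and the peptidase Lap3 (-1.02 ± 0.21). At 400 mm3, 5 were lower and 1 was higher, beside 14.3% of all genes DE (7.79% lower), the lower ones being H2-T24 (-1.98 ± 0.25), Ifng, H2-T22, H2-Q4 and Lap3 and the higher one Rfxank (1.02 ± 0.15), a partner of RFX5. At 800 mm3, 1 was lower, H2-T24 (-1.33 ± 0.32), beside 14.1% of all genes DE (7.62% lower). H2-T24 had 30.9, 53.6, 24.2 and 39.0 CPM in the CT-26 tumors of 400 mm3 and 11.3, 7.57, 8.05 and 10.3 CPM in the Colon 26 tumors, with no overlap. Ifng, which encodes interferon gamma, had 0 counts in all 6 cultures and was low in tumors, at a median of 1.17 CPM in CT-26 against 0.584 CPM in Colon 26, and over all tumors it was lower in Colon 26, at a log2 fold change of -1.16 ± 0.41 (edgeR adjusted p = 0.0152). The constitutive subunits Psmb5, Psmb6 and Psmb7 and the chaperones Pdia3, Calr and Canx were DE in no comparison of the models, with log2 fold changes between -0.61 and 0.33.

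Against culture, 15 of the 35 pathway genes tested were DE and higher in CT-26 tumors of 100 mm3 and 14 in Colon 26 tumors, beside 22.2% and 20.8% of all genes, and 0 were lower in either. In the list of nonclassical heavy chains 7 of 9 rose in each model, among them H2-T23 (5.68 ± 0.51 and 3.14 ± 0.30) and H2-T24 (6.52 ± 0.59 and 6.02 ± 0.54). Of Psmb10 and the PA28 proteasome activator genes Psme1 and Psme2, all 3 rose in CT-26 and 2 of them (not Psme2) in Colon 26, with Psmb10 at 4.004 ± 0.32 and 2.85 ± 0.26. None of the 3 constitutive proteasome subunits or the 6 further peptidases was DE. Ifng and Cd1d1 are counted among the genes that rose, but no fold is given because they were at or near 0 in culture. The interaction of model and tissue was DE for 3 of 35, beside 17.6% of all genes, namely H2-T23 (-2.59 ± 0.60), Irf1 (-1.26 ± 0.56) and Psmb10 (-1.20 ± 0.41), each with the smaller rise in Colon 26.

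**Figure D5:**
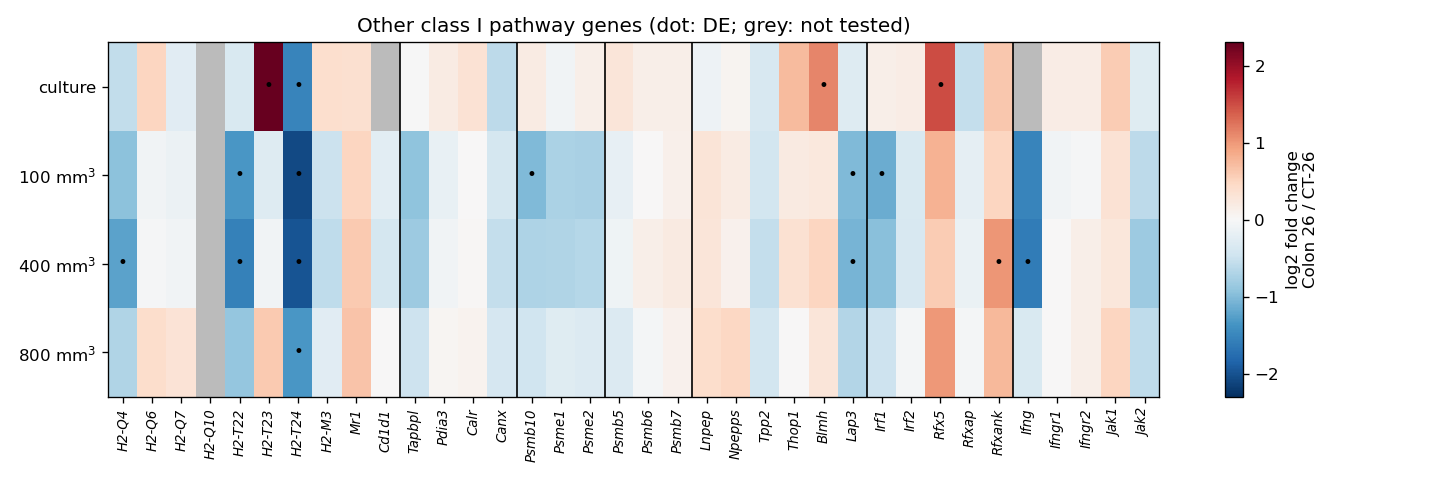
Log2 fold change of Colon 26 over CT-26 (red higher, blue lower in Colon 26) for the other class I pathway genes in culture and in tumors of 100, 400 and 800 mm3, in 7 lists separated by lines; a dot marks a DE gene and grey a gene not tested. H2-T23, Rfx5 and Blmh are red and dotted in culture, and H2-T24 is blue and dotted at each tumor size.

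Among tumors of the same group the 10 genes moved together. After each group mean was removed, the correlation of log2 CPM between pairs of the 10 genes over the 24 tumors had a median of 0.911 and ran from 0.741 to 0.981. In CT-26, replicate 2 had the highest level of all 10 genes at 100 mm3 and again at 400 mm3, and its T cell marker sums, 63.9 and 56.4 CPM, were the highest of their groups. At 100 mm3 it also had the highest Ptprc level and NK cell sum (188 and 18.9 CPM). At 400 mm3 these were highest in replicate 4 (123 and 8.68 CPM), against 110 and 8.51 CPM in replicate 2. At 800 mm3 the lowest library for all 10 genes was replicate 4 in CT-26, whose T cell sum of 8.40 CPM was the lowest of its group, and replicate 1 in Colon 26, with the lowest T cell sum of its group as well (9.93 CPM). Over the means of the 8 groups the correlations between pairs had a median of 0.834, with Tap2 at the low end (0.327 with B2m). These values describe libraries that also differ in immune cell content and depth, and they carry no test.

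The 5 genes outside the list closest to the mean of the 10 over the 8 group means, among 13446 genes with a mean of at least 1 CPM, were H2-T22 (Pearson r = 0.997), H2-T10 (0.996), Gbp9 (0.996), Gbp2 (0.995) and Casp1 (0.995). Over the 24 tumors with group means removed they were H2-T22 (0.979), Gbp7 (0.972), Gm11127 (0.972), Gm4070 (0.972) and Gbp2 (0.966). On this measure Irf1 was at 0.944, the T cell gene Cd3e at 0.910, Ptprc at 0.749 and the macrophage gene Csf1r at 0.151.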

How the data were processed

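RNA-seq libraries (TruSeq mRNA, poly(A) selected, paired ends on a HiSeq X) of cultured CT-26 and Colon 26 cells and of tumors of both were analysed. The authors deposited estimated counts and FPKM per gene, made with Array Studio 10.0.1.118 and Ensembl release 78; the aligner, genome build and strand setting are not given in the sources used here. The table held 53431 genes, of which 52207 identifiers matched a symbol, and 23.0% of the non-zero deposited counts were not whole. Counts were rounded and used in place of the raw counts foreseen in the design. Library totals (21384730 to 39722586) set the counting precision.

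Groups came from the labels (model, culture or tumor size), which carry no replicate number, so replicates are numbered in accession order only. Genes were filtered with filterByExpr, scaled by TMM and tested by the quasi-likelihood test of edgeR 4.0.16 (R 4.3.3), with Benjamini-Hochberg adjustment over all genes tested. DE genes had an adjusted p no higher than 0.1 and a change of 1 or more on the log2 scale, as in the study, which used DESeq2 1.24.0. Fold changes divide Colon 26 by CT-26, or tumor by culture, and are given on the log2 scale ± SE; CPM and FPKM values are ± SD. Levels are compared between genes only in deposited FPKM. The alternatives were DESeq2 1.42.0, RLE factors, library size only, no filter, a stricter filter (10 counts or more in each library), an adjusted p threshold of 0.05, no minimum fold change, all 30 libraries in 1 fit, limma 3.58.1 on log2(FPKM + 0.1) and log2(FPKM + 1), Ptprc as a covariate, and each library left out in turn. The 5 motifs and 5 subunit ratios were chosen after the sequences and levels had been seen.

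All 10 genes were named, the pathway and marker lists by counts with the DE genes of largest change, and the likeness genes by the highest Pearson correlation with the mean of the 10. The genes and lists were chosen with earlier results of these data known. Gene positions are from GENCODE M21 on GRCm38 and promoters from RefSeq on GRCm38.p6, and neither is known to be the build of the counts. A further gene of the pathway is not reported here.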

Additional observations from a re-analysis of the deposited data

Results flagged for a closer look

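In 5 of the 60 pairs of a gene and a tumor group, 1 library lay far from the other 3 by Dixon's criterion, which chance meets in about 1 of 20 groups. Replicate 3 of the Colon 26 tumors of 400 mm3 was high for H2-D1 (1420 CPM) and for B2m (1402 CPM). Replicate 4 of the CT-26 tumors of 800 mm3 was low for Tap2 (149 CPM) and Nlrc5 (72.9 CPM). Replicate 1 of the Colon 26 tumors of 800 mm3 was low for Psmb9 (24.1 CPM).

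The change from culture to tumors of 100 mm3 differed between the models in 5 genes by the interaction test in edgeR, with the lower change in Colon 26. The differences on the log2 scale were -2.54 for Psmb8, -1.83 for Psmb9, -1.77 for Tap1, -1.44 for Tapbp and -1.18 for Tap2.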

How the results depend on the processing

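No direction of any of the 10 genes turned where a call had been made. Without a minimum fold change the number of the 10 genes called went from 4 to 9 in culture, from 2 to 7 at 100 mm3, from 4 to 10 at 400 mm3, from 1 to 8 at 800 mm3 and from 2 to 9 over all tumors, since genes past the adjusted p alone were then counted. The other alternatives kept every count within 1.5 times. With 1 library left out, the number called ran from 4 to 4 in culture, 1 to 4 at 100 mm3, 2 to 5 at 400 mm3, 1 to 1 at 800 mm3, 2 to 3 over all tumors, 7 to 9 and 8 to 9 for tumors against culture in CT-26 and Colon 26, and 3 to 5 for the interaction of model and tissue. It stayed at 0 for all 4 comparisons of sizes and for the interaction of model and size. The count at 100 mm3 was 1 without CT-26 replicate 2 and 4 without CT-26 replicate 4 or Colon 26 replicate 2, and that at 400 mm3 was 2 without CT-26 replicate 2. The cause was not tested. Tap1 in Colon 26 tumors against culture fell under the fold threshold with limma on FPKM (0.90 and 0.92). No paired analysis was possible because the labels give the libraries no replicate numbers.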
